A study of Saccharomyces cerevisiae with 4 samples.

Results

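The AIM and FMP genes of budding yeast (Saccharomyces cerevisiae) carry placeholder names. AIM genes were named for an altered inheritance of mitochondria in deletion mutants, and FMP genes for proteins found in the mitochondrial proteome. Of the 6692 genes in the authors' deposited table, 54 had a name that starts with AIM or FMP and a digit. The MICOS genes YBR262C, YFR011C and YNL100W were set aside by rule, as was YKR016W, which the table lists under another name. The remaining 51 genes, 34 named AIM and 17 named FMP, all had at least 100 reads over the pair of libraries made with cycloheximide. The reference gene table gives 8 of them another standard symbol, printed here in parentheses. The members with the fewest were AIM26, at 163 reads, and AIM33, at 223.

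Most mitochondrial proteins are encoded in the nucleus and made on cytosolic ribosomes. Many begin with a presequence, an N-terminal targeting peptide that the import machinery of the outer membrane recognises and that is usually cleaved in the matrix. Some of these proteins are taken up while they are still being translated, and their ribosomes then sit at the outer membrane. MitoProt scores how likely a protein is to begin with such a presequence, from low to high on a scale that ends at 1.

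Ribosome footprints were sequenced in 4 libraries from cells of S288C background, with 1 library in each group. In all of them the outer membrane protein Om45 was fused to the biotin ligase BirA (om45::OM45-mVenus-BirA::HIS5), and both genes of ribosomal protein Rpl16 had an Avi tag, which BirA biotinylates (rpl16a::RPL16a-HA-TEV-AVI and rpl16b::RPL16b-HA-TEV-AVI). The strain was also labelled leu2::pPGK1-BirA::LEU2, a BirA gene with the PGK1 promoter and no Om45 part, and carried ura3Δ0, met15Δ0 and his3Δ1. Biotin at 10 nM was given for 2 min, either after 2 min with cycloheximide, an inhibitor of translation elongation, at 100 µg/ml or with no cycloheximide, and streptavidin then took the biotinylated ribosomes (the pulldown) from the whole (the input). With cycloheximide the input held 22528297 reads over all genes and the pulldown 37467060. Without it they held 18172572 and 15705022. The message of OM45 itself stood 4.27 above the median gene with cycloheximide on the log2 scale and 2.26 without it, whereas RPL16A stood at 0.12 and -0.10 and RPL16B at 0.22 and -0.19.

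Enrichment here is the log2 ratio of pulldown to input reads, each library scaled to its total over nuclear genes, and set relative to the median gene of the comparison. That median gene stood at -0.73 on library totals with cycloheximide and at -0.03 without it. A gene is called enriched here when its ratio was 2-fold or more over that of the median gene, and depleted when it was as far under it. Bracketed ranges are 95% intervals for counting error only. With 1 library per group no difference has a replicate check, no test across genes was possible and no p-value is given.

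With cycloheximide 25 of the 51 AIM and FMP genes were enriched and 0 were depleted. Over all 5464 genes with enough reads 12.5% were enriched and 0.201% depleted. The range ran from -0.42 for AIM14 to 4.05 for AIM9. The median, 0.98, fell on AIM32, just under the 2-fold line. It was 0.26 on library totals and 1.72 with a minimum of 500 reads. On the scale of library totals 24 members passed 2-fold upward and 4 downward, beside 9.13% and 16.1% of all genes. The 4 low members on that scale were AIM14, AIM3, AIM26 and FMP48.

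Cut at the 2-fold line, the members form 2 ranges that by definition cannot overlap. The 25 enriched genes lay between 1.72 and 4.05, with a median of 2.95. The other 26 lay between -0.42 and 0.98, with a median of 0.01, and 24 of them were within 0.5 of the median gene. AIM32 at 0.98 (0.82 to 1.15) and FMP16 at 0.51 (0.38 to 0.65) were the highest of the second range, followed by AIM19 at 0.41. FMP43 at 1.72, FMP33 at 1.82 and FMP21 at 1.89 were the lowest of the first.

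**Figure D1:**
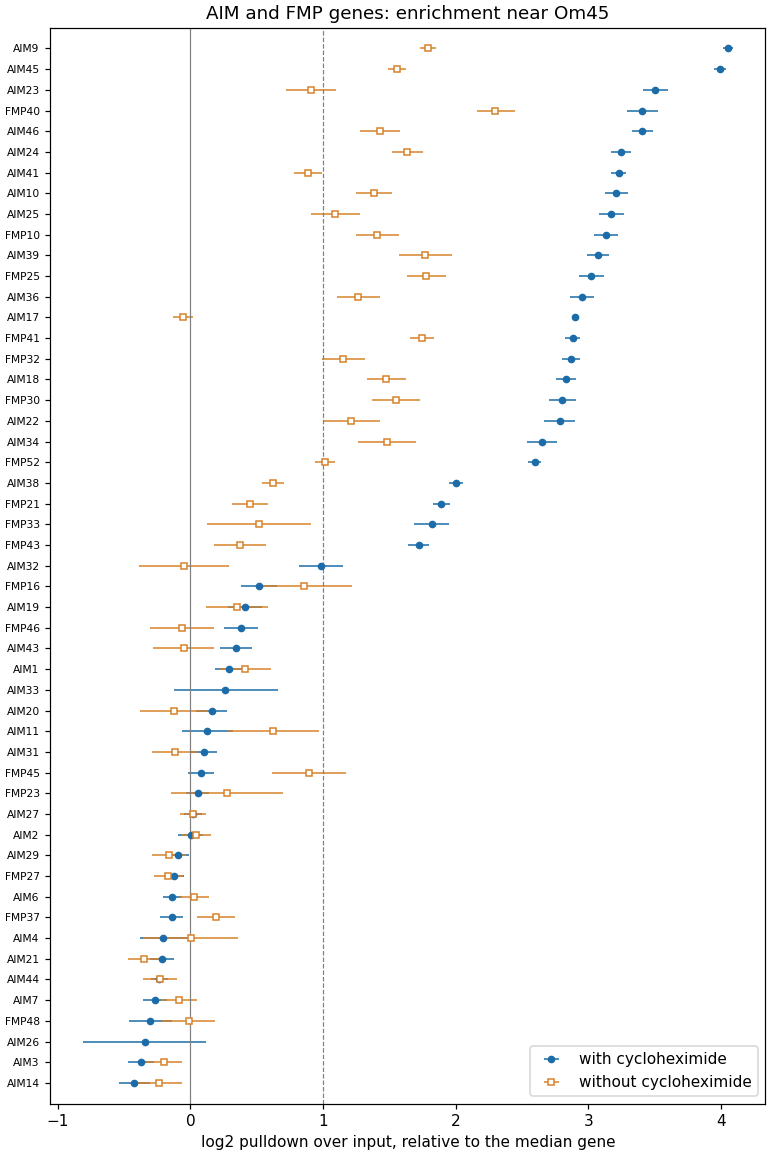
Log2 enrichment (x axis, relative to the median gene) of each AIM and FMP gene (y axis, sorted by the value with cycloheximide). Filled circles are the pair of libraries with cycloheximide and open squares the pair without it, for the 49 genes with enough reads there. Horizontal bars are 95% counting intervals, and the dashed line is 2-fold. With cycloheximide 25 genes lie to the right of the dashed line and without it 18 do.

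Summed over the 51 genes, their share of nuclear-gene reads was 0.465% in the input with cycloheximide (Wilson 95% interval 0.462% to 0.468%) and 1.59% in its pulldown (1.58% to 1.59%). Without the drug the shares were 0.226% (0.224% to 0.229%) in the input and 0.396% (0.393% to 0.399%) in the pulldown. Much of this came from few genes. AIM17, AIM9 and AIM45 held 26.5% of the members' input reads with cycloheximide and 50.6% of their pulldown reads. Without AIM17 the share of all members was 0.388% in that input and 1.24% in that pulldown.

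Of 5 members with matrix roles in gene expression and cofactor metabolism 4 were enriched with cycloheximide, where 12.5% of all genes were. Their values ran from 0.29 for AIM1 to 3.99 for AIM45. AIM45, the alpha subunit of the electron transfer flavoprotein, had 4229 input and 67515 pulldown reads with the drug and 2322 and 5771 without it. Its enrichment was 3.99 (3.94 to 4.03) with cycloheximide and 1.56 (1.49 to 1.63) without, so the pulldown was above the input in both pairs and by more with the drug. AIM23, the mitochondrial translation initiation factor 3, had 972 and 11095 reads with the drug and 373 and 592 without it. It stood at 3.50 (3.41 to 3.60) with cycloheximide and at 0.91 (0.72 to 1.10) without, just short of 2-fold in the second pair.

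AIM10, which resembles prolyl-tRNA synthetases, stood at 3.21 with the drug and 1.38 without it, on 1166 and 622 input reads. AIM22, a lipoate-protein ligase that attaches the lipoyl cofactor to matrix enzymes, stood at 2.78 and 1.21. The exception was AIM1 (BOL3), which acts in the transfer of iron-sulfur clusters. AIM1 had 1334 input and 1638 pulldown reads with the drug and 429 and 483 without it, which gave 0.29 (0.18 to 0.39) and 0.41 (0.22 to 0.60). It encodes the shortest protein of the 5, at 118 amino acids, with a MitoProt score of 0.91.

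On the list of respiratory chain factors and inner membrane proteins, 3 of 6 members were enriched with cycloheximide. The share was 12.5% over all genes and 43.7% over other annotated mitochondrial genes. FMP21 and FMP25, described further on, also act in the assembly of respiratory complexes and were enriched, but were not on this list. The list was chosen with earlier results known, as were the other role lists. AIM24, which supports the integrity of the MICOS complex of cristae junctions, had 1523 and 14517 reads with the drug and 792 and 2080 without it. It stood at 3.24 (3.17 to 3.32) with cycloheximide and 1.64 (1.52 to 1.76) without. Its frame on chromosome X, from 580432 to 581616, overlaps YJR079W in the reference gene table. That overlap was found by position only, without strand, and whether reads of this pair can be told apart was not checked. AIM24 was the only member whose frame overlapped another gene of that table.

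The respiratory supercomplex factors AIM38 (RCF2) and AIM31 (RCF1) had different values. AIM38 had 3595 input and 14501 pulldown reads with cycloheximide and 2214 and 2882 without it, an enrichment of 2.00 (1.95 to 2.06) and 0.62 (0.54 to 0.70). AIM31 had 1482 and 1597 reads with the drug and 628 and 490 without it, and stood at 0.10 and -0.11. Both have low MitoProt scores, 0.03 for AIM38 and 0.26 for AIM31, and both are annotated as mitochondrial. AIM43 (INA17), an assembly factor of the ATP synthase, has a score of 0.99 and stood at 0.35 (0.23 to 0.47) with cycloheximide and -0.05 without.

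Subunits of the mitochondrial pyruvate carrier, which brings pyruvate across the inner membrane, also differed from each other. FMP43 (MPC3) had 1689 and 5593 reads with the drug and 411 and 449 without it, and stood at 1.72 (1.64 to 1.80) and 0.37 (0.17 to 0.57). FMP37 (MPC1) had 2218 and 2020 reads with the drug and 810 and 782 without it. It stood at -0.14 (-0.23 to -0.05) with cycloheximide and 0.19 (0.05 to 0.34) without it, close to the median gene in both pairs. MPC2 (YHR162W), which the deposited table gives as the ohnolog of FMP43, a paralog from the whole-genome duplication, stood at 0.71 (0.69 to 0.73) and -0.02. All 3 proteins are short, at 146, 130 and 129 amino acids, and have MitoProt scores of 0.85, 0.91 and 0.97.

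Members that resemble enzymes of known families were enriched in 7 of 12 cases with cycloheximide. Over all genes the share was 12.5%, and over other annotated mitochondrial genes it was 43.7%. FMP40, a protein of the SelO family that attaches AMP to its targets, had 658 input and 7014 pulldown reads with the drug and 494 and 2056 without it. It stood at 3.41 (3.29 to 3.52) with cycloheximide and at 2.30 (2.16 to 2.44) without it, where it was the highest of all members and ranked 31 of 5148 genes. FMP41, of the fumarylacetoacetate hydrolase family, stood at 2.88 and 1.74, and FMP30, a relative of phospholipases D that act on N-acyl phosphatidylethanolamine, at 2.80 and 1.55. FMP52 stood at 2.59 (2.55 to 2.64) and 1.01 (0.94 to 1.09), so its value without the drug lay at the 2-fold line.

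AIM18 and AIM46, both related to chalcone isomerases, lie next to each other on chromosome VIII in build sacCer3. AIM18 (YHR198C) spans 496315 to 497280 and AIM46 (YHR199C) spans 497490 to 498422, with 209 bases between them. AIM18 had 1767 and 12631 reads with cycloheximide and 539 and 1267 without it, and AIM46 had 1422 and 15148 with it and 504 and 1147 without it. Enrichment was 2.83 (2.76 to 2.90) for AIM18 and 3.41 (3.33 to 3.49) for AIM46 with the drug. Without it the values were 1.48 (1.33 to 1.62) and 1.43 (1.28 to 1.58), whose intervals overlap.

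AIM17, which resembles dioxygenases of carnitine synthesis, had the highest input level of the members with cycloheximide, 475 RPKM, where the median member had 70.2 (RPKM is the authors' count scaled to gene length and library size). It had 17249 input and 129059 pulldown reads with the drug, and 3232 and 2629 without it. Enrichment was 2.90 (2.87 to 2.92) with cycloheximide and -0.06 (-0.13 to 0.02) without it. Of the 25 enriched members it was the only one whose interval without the drug reached 0.

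The other enzyme-like members stood near the median gene or at the edge of 2-fold. AIM32, a thioredoxin-like iron-sulfur protein, had 461 and 917 reads with cycloheximide and 164 and 134 without it, and its interval of 0.82 to 1.15 with the drug spans the 2-fold line. FMP46, a putative redox protein, stood at 0.38 and -0.06, and AIM2, a relative of dienelactone hydrolases, at 0.00 and 0.04. AIM14, an NADPH oxidase of the endoplasmic reticulum, had the lowest value of all members with cycloheximide, -0.42 (-0.54 to -0.31). FMP48, a predicted protein kinase, stood at -0.30 (-0.47 to -0.14) with the drug and -0.01 without.

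Of the members known from the actin cytoskeleton, cell cortex, bud neck or lipid transfer, 0 of 6 were enriched with cycloheximide and 0 of 6 without. With 12.5% and 6.39% of all genes enriched, so short a list is near the background. AIM3 and AIM21, proteins of cortical actin patches, stood at -0.37 and -0.21 with the drug. AIM7, related to glia maturation factor and a debrancher of actin networks, stood at -0.27, and AIM44, a bud neck protein, at -0.23. FMP27, a very long protein of the bridge-like lipid transfer family, had 2895 and 2668 reads with the drug and 1583 and 1191 without it. It stood at -0.13 (-0.20 to -0.05) and -0.17 (-0.28 to -0.06), although its MitoProt score is 0.97. FMP45, a membrane protein of the SUR7 family, stood at 0.08 with the drug and 0.89 (0.61 to 1.17) without it, on 176 input reads in the second pair.

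The other 22 members have no sure role in this grouping or were left out of the role groups, and 11 of them were enriched with cycloheximide. Beside them stood 12.5% of all genes and 43.7% of other annotated mitochondrial genes. AIM9 led all members. It had 6239 input and 104002 pulldown reads with the drug and 3162 and 9236 without it, an enrichment of 4.05 (4.01 to 4.09) and 1.79 (1.73 to 1.85). With cycloheximide this was 16.6-fold above the median gene, and AIM9 ranked 14 of 5464 genes. In build sacCer3 AIM9 (YER080W) lies on chromosome V from 319963 to 321846.

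AIM41 stood at 3.23 (3.17 to 3.29) with the drug and 0.88 (0.78 to 0.99) without it, AIM25, a relative of phospholipid scramblases, at 3.17 and 1.09, and FMP10 at 3.13 and 1.41. FMP25, which acts in assembly of the cytochrome bc complex, stood at 3.02 and 1.78. AIM36, FMP32 and AIM34 were also enriched in both pairs, at 2.95, 2.86 and 2.65 with the drug. FMP21 (SDH8), an assembly factor of succinate dehydrogenase, stood at 1.89 (1.83 to 1.95) with cycloheximide and 0.45 without it, and FMP33 at 1.82 and 0.51.

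AIM39 was the single member at 2-fold or more without a mitochondrial annotation in the deposited table. AIM32, which also lacks it, lay just under 2-fold at 0.98 and passed when the zero was set on genes without the annotation. AIM39 had 1313 input and 11090 pulldown reads with cycloheximide and 277 and 798 without it, and stood at 3.07 (2.99 to 3.15) and 1.77 (1.57 to 1.97). Its pulldown share was above its input share in both pairs. The MitoProt score of AIM39 is 0.08, and the table gives no localisation of a GFP fusion for it. In build sacCer3 AIM39 (YOL053W) is a protein-coding gene on chromosome XV from 230085 to 231272.

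Among the members of this remainder near the median gene were AIM27 (EMC3), a subunit of the ER membrane complex that inserts membrane proteins, at 0.02 (-0.05 to 0.08) with the drug and 0.02 without it. FMP16 stood at 0.51 and 0.86, AIM19 at 0.41 and 0.35, AIM20 at 0.16 and -0.12, and FMP23 at 0.06 and 0.27. AIM6, AIM4 and AIM29 stood between -0.20 and -0.10 with the drug. AIM11, AIM33 and AIM26 stood at 0.13, 0.26 and -0.34, with intervals that span the median gene. AIM26 had 91 and 72 reads with the drug and 3 and 11 without it, and AIM33 had 33 and 39 without it, so both were left out of the pair without cycloheximide.

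The annotation in the deposited table marked 35 of the 51 members as mitochondrial, all 35 through gene ontology and 5 of them (FMP10, FMP16, FMP32, FMP48 and AIM17) also through the mitop2 reference set. The compartment column of the table held the general entry "mitochondrial" for FMP10, FMP16, FMP32 and AIM17, and named the matrix, a membrane or the intermembrane space for none of the 51. Of the 35 annotated members 24 were enriched with cycloheximide, with a median of 2.78, where 43.7% of other annotated mitochondrial genes were. Of the 16 members without the annotation 1 was, AIM39, and their median was -0.05. That share of 6.25% was near the 4.41% of other nuclear genes without the annotation. By mitop2, 3 of 5 members in the set and 22 of 46 outside it were enriched, where 12.5% of all genes were.

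GFP localisation was listed for 22 members. For 13 the entry was mitochondrion, and 9 of these were enriched with cycloheximide, with a median of 1.89. The 4 others with that entry were FMP16, FMP23, FMP37 and FMP46. For 9 members the entry was another place, and 1 of these was enriched, FMP52, whose GFP entry is the endoplasmic reticulum and whose MitoProt score is 0.56. The rest of these 9 were listed in the cytoplasm (AIM2), nucleus (AIM4), both (AIM7, AIM29 and FMP48), vacuole (AIM20), actin (AIM21) or a punctate pattern (FMP45), and stood between -0.30 and 0.16. Of the 29 members with no GFP entry 15 were enriched, with a median of 2.00. Over all genes 12.5% were enriched, so the 11.1% of members with another place was near that share. Shares of all genes by GFP entry were not counted.

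Enrichment with cycloheximide went with the predicted presequence, but the score split nearly the same genes as the annotation did. Of the annotated members only AIM19, AIM31 and AIM38 score under 0.5. Of the members without annotation only AIM1 and AIM32 score 0.5 or more. The 2 splits are therefore not separate results. Of 34 members with a MitoProt score of 0.5 or more 23 were enriched, with a median of 2.79. Their share of 67.6% was near the 69.8% of other annotated mitochondrial genes with such a score. Of 17 members under 0.5 the number was 2, AIM38 and AIM39, with a median of 0.00. That share of 11.8% was near the 12.5% of all genes. Over the 51 genes the Spearman correlation of score and enrichment was 0.49 with the drug, and over 49 genes it was 0.36 without it. These are descriptions across genes that share the same libraries. Within the 34 high-scoring members the correlation with the score was 0.10 with the drug. For the 507 other annotated mitochondrial genes with such a score it was 0.30.

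**Figure D2:**
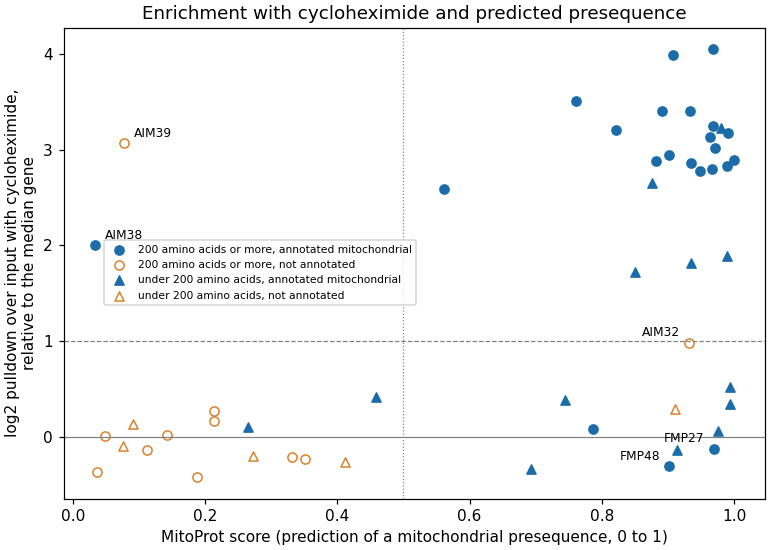
Log2 enrichment with cycloheximide relative to the median gene (y axis) against MitoProt score (x axis) for the 51 members. Circles are proteins of 200 amino acids or more and triangles shorter ones, filled where the deposited table annotates the gene as mitochondrial. The dashed line is 2-fold and the dotted line a score of 0.5. AIM38 and AIM39 lie above 2-fold at low scores, and 11 members lie below it at scores of 0.5 or more.

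Of the 29 members with a score of 0.8 or more, 21 were enriched and 8 were not. Over all genes 12.5% were enriched, and of other annotated mitochondrial genes with a score of 0.5 or more 69.8% were. The share of other genes at 0.8 or more was not counted. The 8 members not enriched were AIM32, which lay next to the 2-fold line at 0.98, FMP16, AIM43, AIM1, FMP23, FMP27, FMP37 and FMP48. Their scores ran from 0.90 for FMP48 to 0.99 for FMP16 and AIM43. Of these, 5 encode proteins under 200 amino acids, and AIM32, FMP27 and FMP48 encode proteins of 311, 2628 and 369.

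The high-scoring members also differed by length. The split at 200 amino acids was chosen after the values were seen, and the gap between the medians of long and short members, 2.47 with cycloheximide, fell to 1.23 with a split at 250. Of 22 members with a score of 0.5 or more and at least 200 amino acids, 18 were enriched with cycloheximide, with a median of 2.92. Of 12 shorter members with such a score 5 were, with a median of 0.45. The 5 were AIM41 (185 amino acids) at 3.23, AIM34 (198) at 2.65, FMP21 (138), FMP33 (180) and FMP43 (146). No member shorter than FMP21 was enriched, and FMP16, at 93 amino acids and a score of 0.99, stood at 0.51.

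Across the 34 high-scoring members the Spearman correlation of length and enrichment with the drug was 0.53, and with input reads it was 0.21. Over the 507 other annotated genes with such a score the correlation with length was 0.47. Of those 386 at 200 amino acids or more 332 were enriched, with a median of 2.81, and of the 121 shorter ones 22 were, with a median of 0.28. Set beside these genes, 81.8% of long and 41.7% of short high-scoring members were enriched, against 86.0% and 18.2% of the other genes.

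**Figure D3:**
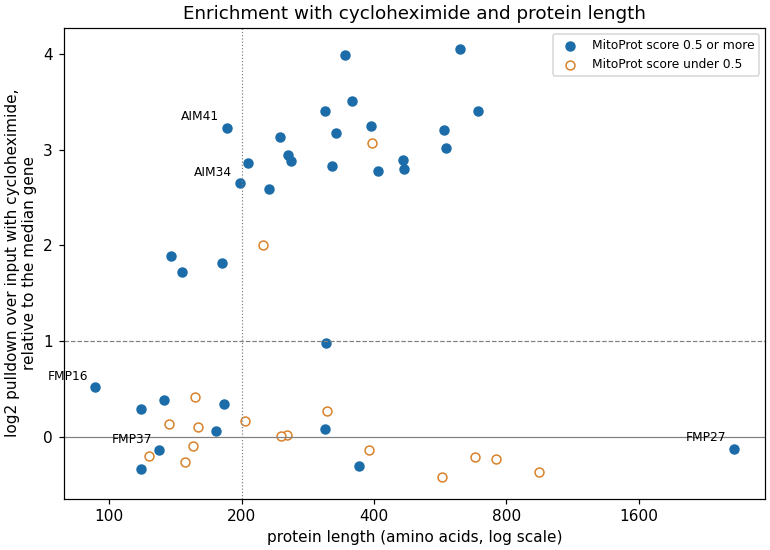
Log2 enrichment with cycloheximide relative to the median gene (y axis) against protein length (x axis, amino acids, log scale) for the 51 members. Filled circles have a MitoProt score of 0.5 or more and open circles a lower one. The dashed line is 2-fold and the dotted line 200 amino acids. Among the filled circles 18 of 22 long and 5 of 12 short proteins lie above the dashed line, and FMP27, the longest protein, lies at -0.13.

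Without cycloheximide 18 of 49 measured members were enriched and 0 depleted, beside 6.39% and 0.0777% of 5148 genes. On library totals 17 passed 2-fold upward and 0 downward, beside 6.06% and 0.0777%. The median member stood at 0.51. FMP40 was highest at 2.30, followed by AIM9 at 1.79, FMP25 at 1.78, AIM39 at 1.77, FMP41 at 1.74 and AIM24 at 1.64. The lowest were AIM21 at -0.35 (-0.47 to -0.23), AIM14 at -0.24 and AIM44 at -0.23. All 18 were among the 25 enriched with the drug, and 7 of the 25 were not enriched without it. Over all genes 682 were enriched with the drug and 329 without it, so fewer were enriched without it there too. The overlap over all genes was not counted, so that of the members has no background beside it. The 7 members enriched only with the drug were AIM17, AIM23, AIM38, AIM41, FMP21, FMP33 and FMP43.

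Among high-scoring members without the drug, 16 of 22 long and 1 of 11 short ones were enriched. The short one was AIM34 at 1.48 (1.26 to 1.70). These were 72.7% of long and 9.09% of short members, against 46.3% and 4.27% of the other annotated genes with such a score, and the differences were not tested. Both pairs of libraries came from the same strain, and the correlation over the 49 members between their values was 0.84 (Spearman).

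The change between conditions was measured as the difference of enrichment with minus without cycloheximide, relative to the median gene, whose own difference was -0.65. The drug cannot be told apart from the culture as its source, and the measure uses both libraries of the cycloheximide pair again. For 25 of 49 members this difference reached 2-fold upward, beside 9.57% of 5141 genes, and for 0 it reached 2-fold downward, beside 0.622%. On library totals the numbers of members past 2-fold were 10 upward and 4 downward, beside 4.55% and 13.5% of genes.

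The largest difference was that of AIM17, 2.91 (2.83 to 2.99). AIM23 followed at 2.55 (2.34 to 2.76), AIM45 at 2.39 (2.31 to 2.47), AIM41 at 2.30 (2.18 to 2.42) and AIM9 at 2.22 (2.15 to 2.29). FMP40, the highest member without the drug, had a difference of 1.06 (0.88 to 1.25), the smallest of those past 2-fold. AIM32 lay just below at 0.99 (0.62 to 1.36).

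At the other end the largest negative difference was that of FMP45, -0.86 (-1.14 to -0.57), with AIM11 at -0.54, FMP16 and FMP37 at -0.38 and FMP48 at -0.33. Over all 49 the counting interval lay above 0 for 28 members, below 0 for 9 and spanned 0 for 12. The matching shares over all genes were not counted, so these numbers have no background beside them and describe counting error only. The negative differences of FMP45, AIM11 and FMP16 rest on 176, 126 and 109 input reads without the drug. The interval of AIM11 ran from -0.92 to -0.15.

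Whole-cell footprints of the members were compared between the 2 inputs, on which every ratio above also depends. Relative to the median gene 7 of 50 members were at least 2-fold higher in the input with cycloheximide and 0 were at least 2-fold lower, beside 10.6% and 10.4% of 5380 genes, so the higher share of 14.0% was near that of all genes. The median gene itself stood at 0.74 on library totals, where 28 members were at least 2-fold higher and 0 as far lower, beside 34.9% and 2.14% of genes. Relative to the median gene 36 members were above 0 and 14 below.

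FMP23 had the largest ratio, 3.42 (3.13 to 3.74), with 2107 input reads with the drug and 95 without it. FMP45 stood at 2.22 (2.00 to 2.46) with 1698 and 176, FMP16 at 1.74 (1.45 to 2.05) with 755 and 109, and FMP33 at 1.49 with 590 and 101. AIM17 at 1.37 (1.32 to 1.42), AIM39 at 1.20 (1.01 to 1.39) and FMP32 at 1.03 (0.88 to 1.18) were the others past 2-fold. The lowest ratios were those of FMP40 at -0.63, AIM21 at -0.57 and AIM2 at -0.52. The input ratio shares its libraries with the difference of enrichment, so the values are only set side by side. FMP23 and FMP45 had differences of -0.26 and -0.86, AIM17 had 2.91, and AIM45 and AIM9 had input ratios of -0.18 and -0.07.

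**Figure D4:**
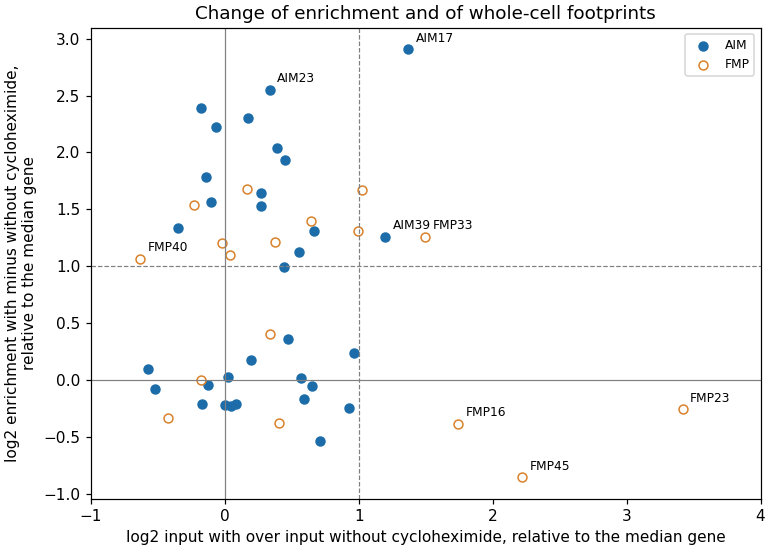
Difference of log2 enrichment with minus without cycloheximide (y axis) against the log2 ratio of input reads with over without cycloheximide (x axis), both relative to the median gene, for the members with enough reads in all comparisons. Both axes use the same input libraries. Filled circles are AIM and open circles FMP genes, and dashed lines are 2-fold. AIM17 is high on both axes, whereas FMP23, FMP45 and FMP16 are high on the x axis and below 0 on the y axis.

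Members named FMP were enriched with cycloheximide in 10 of 17 cases, with a median of 1.82, and members named AIM in 15 of 34, with a median of 0.38. The median MitoProt score was 0.93 for FMP and 0.58 for AIM genes. Beside the members, 465 of 1063 other annotated mitochondrial genes of the nucleus were enriched (median 0.51), and 192 of 4350 nuclear genes without the annotation (median -0.04). Of 43 genes named MRPL or MRPS for the mitochondrial ribosome 23 were, with a median of 1.44, and all 9 measured genes named COQ for coenzyme Q synthesis were, with a median of 3.49. The differences between these groups were not tested.

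The table lists an ohnolog for 5 members. SKG1, the ohnolog of AIM20, stood at -0.29 with cycloheximide, PGA3, that of AIM33, at 0.06, YBL059W, that of AIM11, at 0.19, and YNL194C, that of FMP45, at -0.26. With MPC2 at 0.71, none of the 5 ohnologs was enriched, and of the 5 members FMP43 was. With 12.5% of all genes enriched, both counts are near the background for so few genes. Reads may be shared between such related genes, and no source used here says how they were assigned.

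The authors' own calls of enrichment in their deposited table covered 21 members with cycloheximide and 13 without it, where 7.58% and 4.52% of genes with an entry were called. The authors' deposited table gives those calls at a log2 enrichment on its own scale, from RPKM and not relative to the median gene, of 1.58 or more with the drug and 1.24 or more without it. FMP21, FMP33, FMP43 and AIM38 were enriched with cycloheximide and not called in the authors' deposited table, where AIM38 had 1.40. Without the drug FMP52, FMP32, AIM22, AIM25 and AIM36 were in the same position, and AIM36 lay nearest, just under the limit at 1.24. The authors' deposited table also flags AIM39 as enriched without a mitochondrial annotation, the only one of the 51 genes with that entry.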

How the data were processed

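The authors' deposited table holds raw counts of reads per gene, RPKM and log2 enrichment (pulldown RPKM over input RPKM), per the file headers. It also holds the MitoProt score and the length of each protein, which are the authors' annotation per the file headers. The submitters' processing notes name CASAVA and build sacCer3, and no source used here states the aligner or how multiply mapping reads were handled. The 5 columns for another fusion protein were not used. All 51 members were found by locus tag in the RefSeq gene table of the same assembly (R64). Groups came from the sample titles.

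Each library was scaled to its counts over 6664 nuclear genes, with a pseudocount of 0.5 reads. Comparisons used genes with at least 100 reads over their 2 libraries, called at 2-fold. A gene was taken as annotated mitochondrial where mitop2 or the gene ontology column said so. Ratio intervals are exact Clopper-Pearson, those of differences use the normal approximation, and the median interval of the members reached 0.09 to either side with cycloheximide and 0.16 without it. The reads carry no stated molecular identifiers and so are not independent molecules, and intervals cover counting error only. The procedure was tested on simulated counts with known folds. These were drawn with counting error only and with equal numbers of genes raised and lowered. They cannot show how other noise, or a shift mostly to 1 side, affects the values. Members, lists and role groups were chosen with earlier results of these data known. All members may be named, with full values for the highest and lowest in each comparison, those next to 2-fold, those enriched without annotation and those with a score of 0.8 or more that were not enriched. Protein sequences and the N-terminal charge planned from them were not analysed here. Alternatives were the zero point, a pseudocount of 1, TMM scaling, minimums of 20 and 500 reads, folds of 1.5 and 4, a score of 0.8, the authors' log2 enrichment and keeping the MICOS genes. Python 3.11.15, numpy 2.4.6, pandas 2.3.3, scipy 1.17.1, matplotlib 3.10.9, R 4.3.3 and edgeR 4.0.16 (TMM only) were used.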

Additional observations from a re-analysis of the deposited data

Results flagged for a closer look

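FMP37 (MPC1) lay on opposite sides of the median gene in the 2 conditions, with counting intervals that exclude it in both. It stood at -0.14 with cycloheximide and 0.19 without it, a difference of -0.38 (-0.54 to -0.21). Both values are under 2-fold, each rests on 1 pair of libraries, and the difference was not tested. Of the 49 members measured in both conditions it was the only one with this pattern.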

How the results depend on the processing

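Without centring on the median gene the median member stood at 0.26 with cycloheximide, the median difference between conditions was 0.41, 10 members passed 2-fold in that difference and 28 in the comparison of inputs. With a minimum of 500 reads the median with cycloheximide was 1.72, and without AIM24 it was 0.75. Few members lie next to the 2-fold line, where the median falls. At 1.5-fold 16 members passed in the inputs (20.9% of all genes upward and 21.9% downward). At 4-fold 1 passed without cycloheximide (FMP40, beside 1.48% of genes), 6 in the difference (2.78%) and 2 in the inputs (FMP23 and FMP45, 3.31%). With a length split at 250 amino acids, added after the data were seen as was leaving out AIM24, the gap between long and short high-scoring members fell from 2.47 to 1.23. The other 79 of 90 values so recomputed stayed within set limits. These were 1.5 times for counts, a fixed margin for the correlation, and otherwise the counting interval of the member nearest the median. No median, gap or correlation changed sign, and counts could not change direction by definition. A change of zero point or library scaling shifts all genes alike, so the gaps and the correlation with the score could not move there. The 25 members enriched with cycloheximide remained so under TMM scaling, the pseudocount of 1, both minimums and the authors' log2 enrichment, and 24 did without centring, where FMP43 dropped below 2-fold. With the zero set on genes without a mitochondrial annotation the 25 remained so, and AIM32 passed as well at 1.02. Without the drug FMP52 dropped below 2-fold without centring and under TMM scaling. No paired analysis was possible because each group holds 1 library. Depth limits AIM26 and AIM33, which were too shallow without cycloheximide.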
